A study of Mus musculus with 12 samples.

Results

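The meiotic chromosome axis and cohesin genes form a group of 10 mouse genes, *Sycp1*, *Sycp2*, *Sycp3*, *Syce1*, *Stag3*, *Rec8*, *Smc1b*, *Smc3*, *Dmc1* and *Hormad1*. They were chosen by symbol, and all 10 were matched to 1 gene identifier each among the 55401 genes of the count table. RNA was sequenced from laser-captured mouse oocytes of primordial follicles, which are dormant and enclosed by flattened pregranulosa cells, and of primary follicles, which have started to grow and carry a layer of cuboidal granulosa cells. Ovaries of mice of the labelled strain C57Bl/6j x CBA/J, aged 7 to 8 days, were by the study's methods cultured for 5 days with dorsomorphin (DM), an inhibitor of AMP-activated protein kinase (AMPK), or with DMSO as control, then fixed with 4% PFA and embedded in paraffin. The sample labels name the control treatment as sham and describe every sample as in vivo. Each of the 4 groups, control and DM at either stage, held 3 libraries of 200 pooled oocytes, named replicates 1 to 3 below. Oocytes were selected by their morphology, and a pool does not show how its cells differ from each other.

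Oocytes enter meiosis before birth, when a protein axis forms along each chromosome pair, the synaptonemal complex holds the homologues together, and DNA breaks are repaired by recombination. Cohesin is a ring of 2 SMC subunits and a kleisin to which a STAG subunit binds, and its meiotic form carries SMC1B, REC8 and STAG3 in place of SMC1A, RAD21 and STAG1 or STAG2, while SMC3 is part of both forms. After birth the oocyte rests in the dictyate stage, in which the synaptonemal complex is gone, whereas the cohesin loaded before birth is known to hold sister chromatids together until the meiotic divisions. The comparisons ask how the levels of these genes differed between DM and control within a stage, and between the stages within a treatment.

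The libraries held 14034586 to 42639326 counted reads, and 1727 to 7909 genes reached 1 CPM (reads of a gene scaled to a common library total) in a library. Control replicate 3 of the primary follicles had the fewest genes at 1 CPM, and the 3 DM libraries of primary follicles had 1798 to 2864. Oocyte markers (17 genes) were present in every group, with a summed level of 35.2 to 1281 CPM in primordial controls, 17.4 to 1076 CPM in primordial DM, 13.9 to 1465 CPM in primary controls and 56.7 to 1118 CPM in primary DM libraries. None of the 17 was at 0 in all 12 libraries, and control replicate 3 of the primary follicles had the lowest sum. Granulosa cell markers (11 genes) summed to 829 to 2646, 13.1 to 2050, 835 to 7451 and 879 to 11211 CPM in the same order of groups, with *Fshr* at 0 throughout. Stromal markers (7 genes) summed to 2545 to 3478, 1640 to 3870, 2284 to 6492 and 2177 to 12531 CPM, and endothelial and blood markers (7 genes) to at most 24.9 CPM in any library. The libraries therefore carried RNA of granulosa and stromal genes beside that of oocyte genes, and the part of these cells in the results below was not tested. In such pools, fewer cells of a type and less RNA per cell cannot be told apart.

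The cohesin genes *Smc3* and *Smc1b* were the members counted in most libraries, and the genes of the synaptonemal complex and of recombination were at or near 0 in most. *Smc3* held 159433 reads, 85.5% of all reads of the 10 genes, and reached 1 CPM in 10 of the 12 libraries. *Smc1b* held 8786 reads and reached 1 CPM in 7 libraries. *Sycp1* and *Sycp3*, a transverse filament protein and a lateral element protein of the synaptonemal complex, reached it in 3 libraries each, and *Stag3* in 1. The other 5 genes were sparse, with *Hormad1* at 1 CPM in 1 library and *Sycp2*, *Syce1*, *Rec8* and *Dmc1* in none. Per kb of exon, the median level over the 12 libraries was 74.6 RPKM (CPM divided by the exon length in kb) for *Smc3* and 0.594 RPKM for *Smc1b*, and no more than 0.0669 RPKM for each of the other 8 genes. In that order the ranges over libraries overlapped, *Smc3* running from 0.144 to 218 RPKM and *Smc1b* from 0.0116 to 28.0 RPKM, and *Smc1b* exceeded *Smc3* in 2 of 12 libraries.

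**Figure D1:**
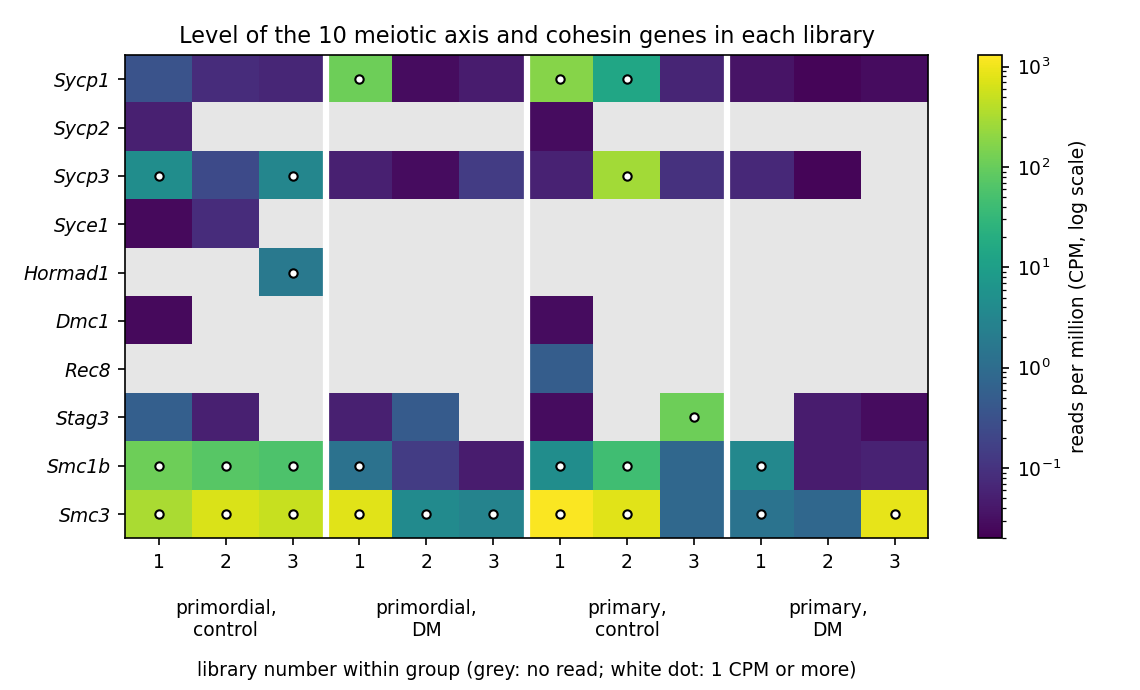
Level of each gene (rows) in each of the 12 libraries (columns, 3 per group), in CPM on a logarithmic colour scale; grey marks libraries with no read and white dots mark 1 CPM or more. Dots cover 25 of 120 fields, 17 of them in the rows of *Smc3* and *Smc1b*.

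Of the 120 combinations of a member and a library, 25 (20.8%) were at 1 CPM or more, beside 23.1% for the 17728 genes with a read in any library and 7.39% for all genes in the table. By group, the members reached 1 CPM in 9 of 30 combinations in primordial controls, 5 of 30 in primordial DM, 8 of 30 in primary controls and 3 of 30 in primary DM libraries. The share for all genes with a read was 32.1%, 23.5%, 23.5% and 13.2% in the same order, also highest in primordial controls and lowest in primary DM libraries. The count of members per library ran from 0 to 4, and the libraries with 2 or more members at 1 CPM had 2864 or more genes at that level. A count of 0 still allows a level of up to 0.0704 to 0.214 CPM, as 3 reads are worth in the deepest and in the shallowest library.

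**Figure D2:**
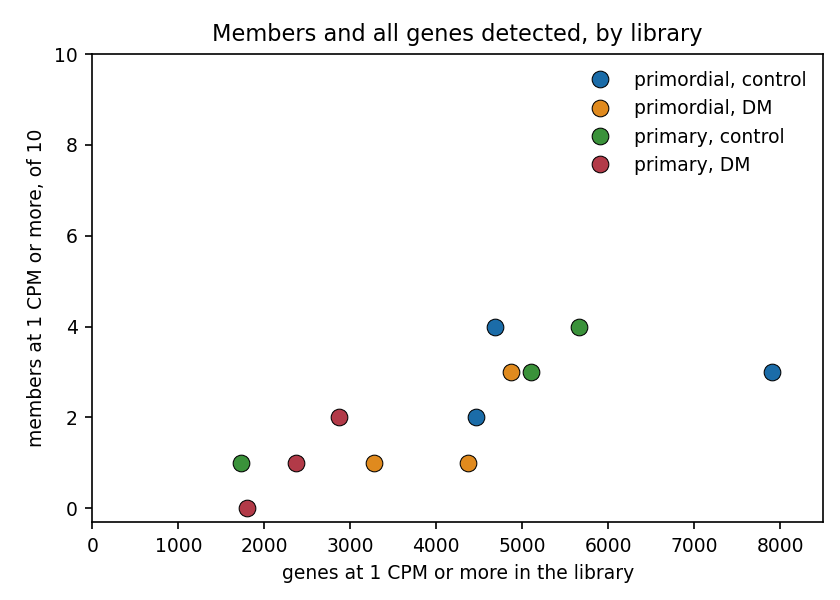
Number of the 10 members at 1 CPM or more (vertical axis) against the number of all genes at 1 CPM or more (horizontal axis), 1 point per library, coloured by group. The DM libraries of primary follicles lie at 0 to 2 members and 1798 to 2864 genes, and the primordial controls at 2 to 4 members and 4466 to 7909 genes.

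The promoters of *Smc1b* and *Smc3*, the members counted in most libraries, and of *Sycp3*, a synaptonemal complex gene, are shown to compare a germline cohesin subunit, the shared subunit and an axis gene, since germline genes are known to share promoter motifs. E2F6, which binds TCCCGC, and the MGA-MAX pair, which binds the E-box CACGTG, are known as parts of a complex that keeps germline genes silent in other cells. Each sequence is the 250 bases before the start given by RefSeq (GRCm38.p6), printed 5′ to 3′ on the gene's own strand with both motifs, on either strand, in capitals. *Smc1b* lies at chr15:85131958-85132207 (minus strand), *Sycp3* at chr10:88459337-88459586 (plus strand) and *Smc3* at chr19:53600146-53600395 (plus strand).
Smc1b: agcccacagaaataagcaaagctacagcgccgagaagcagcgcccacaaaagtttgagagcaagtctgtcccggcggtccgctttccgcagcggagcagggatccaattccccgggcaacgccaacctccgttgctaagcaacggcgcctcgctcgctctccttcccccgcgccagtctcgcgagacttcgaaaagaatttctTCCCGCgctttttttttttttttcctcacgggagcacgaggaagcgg
Sycp3: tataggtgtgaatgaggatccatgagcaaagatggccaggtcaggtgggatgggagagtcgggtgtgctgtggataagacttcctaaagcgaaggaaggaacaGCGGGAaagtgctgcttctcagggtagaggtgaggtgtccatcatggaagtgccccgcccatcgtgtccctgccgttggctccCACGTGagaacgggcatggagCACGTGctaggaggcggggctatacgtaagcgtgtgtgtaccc
Smc3: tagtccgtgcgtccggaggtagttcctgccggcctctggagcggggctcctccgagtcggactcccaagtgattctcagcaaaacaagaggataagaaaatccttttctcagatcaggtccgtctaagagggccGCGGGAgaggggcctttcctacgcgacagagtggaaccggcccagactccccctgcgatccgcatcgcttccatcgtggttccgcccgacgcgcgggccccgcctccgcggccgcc

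*Smc1b* held TCCCGC from 47 to 42 bases before its start, *Smc3* held the reverse complement GCGGGA from 116 to 111 bases before, and *Sycp3* held GCGGGA from 147 to 142 and CACGTG from 64 to 59 and from 43 to 38 bases before. Over all members, TCCCGC or GCGGGA was found in 6 of 10 (*Sycp3*, *Rec8*, *Smc1b*, *Smc3*, *Dmc1* and *Hormad1*), against 16.9% of 32851 mouse promoters of this length. CACGTG, which is its own reverse complement and overlaps neither of the other letters, was found in 4 of 10 (*Sycp1*, *Sycp3*, *Stag3* and *Hormad1*), against 6.02% of promoters. The windows of the members held 53.2% to 68.8% G and C and 7 to 26 CpG, where the median over all promoters was 52.4% and 6. These matches describe letters in the reference and say nothing of binding in these oocytes.

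*Smc1b*, the gene of the germline SMC1 subunit (ENSMUSG00000022432.7, chr15:85064689-85131964, minus strand, GRCm38), was high in each primordial control and low in each primordial DM library. Its level was 113, 71.6 and 58.6 CPM in the controls (81.2 ± 28.7, mean ± SD, n = 3) and 1.28, 0.143 and 0.0475 CPM in the DM libraries (0.491 ± 0.687, n = 3). The groups did not overlap. Of the 10 members, 2 passed the filter on low counts in this comparison, 2 with DM in primary follicles, 4 between stages in controls, 1 between stages with DM and 5 in the model of all libraries. *Smc1b* passed it here through the reads of the controls (4293, 2655 and 886, against 49, 5 and 1 with DM). A difference of such a gene is in part by construction. The fitted change was -6.94 (SE 3.86) on the log2 scale by edgeR's quasi-likelihood test, with an adjusted p of 0.658 over 6699 genes, so the difference did not pass the threshold of 0.05. In the same comparison, 11% of tested genes were lower in DM with no overlap, 7.33% had an unadjusted and 0.0149% an adjusted p under 0.05. DESeq2 gave a change of -6.78 (SE 1.70) with an adjusted p of 0.00163, beside 9.7% of genes called by that tool. Left-out libraries moved the edgeR value between -8.99 and -6.39. Summed oocyte markers overlapped between these groups. In controls 26 of 51 combinations of a marker and a library were at 1 CPM, and in DM libraries 12 of 51. Of the 17 oocyte markers 11 were tested here, 3 with a higher and 8 with a lower value. No overlap was seen for 3 of the lower markers, so *Smc1b* was not alone in this split. The part of the oocyte markers in the difference of *Smc1b* was not tested.

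In primary follicles *Smc1b* was at 4.49, 44.0 and 0.804 CPM in controls and at 3.53, 0.0469 and 0.0570 CPM in DM libraries. Only DM replicate 1 was above the lowest control, so the groups overlapped. The fitted change with DM was -2.56 (SE 2.68), with an adjusted p of 0.611 by edgeR's test over 4181 genes, and it ran from -5.88 without DM replicate 1 to -0.82 without control replicate 2. In this comparison no gene passed the threshold there (0% by edgeR's adjusted p, 12.2% at an unadjusted p under 0.05, 16.7% by DESeq2). Between stages, all primary controls were below all primordial controls for *Smc1b*, with a fitted change of -2.38 (SE 3.03) and an adjusted p of 0.928 by edgeR over 6726 genes, of which 8.46% were lower with no overlap. Among DM libraries the stages overlapped, and the gene lay under the filter on low counts. Whether the change with DM differed between stages was tested in 1 model of all 12 libraries, in which the difference of *Smc1b* was 4.99 (SE 4.28) with an adjusted p of 0.511 by edgeR over 8500 genes, and 6.50 (SE 2.43) with an adjusted p of 0.0497 by DESeq2, which called 7.96% of genes in this test. The comparisons with DM and between stages share control libraries, so their values are not independent of each other.

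**Figure D3:**
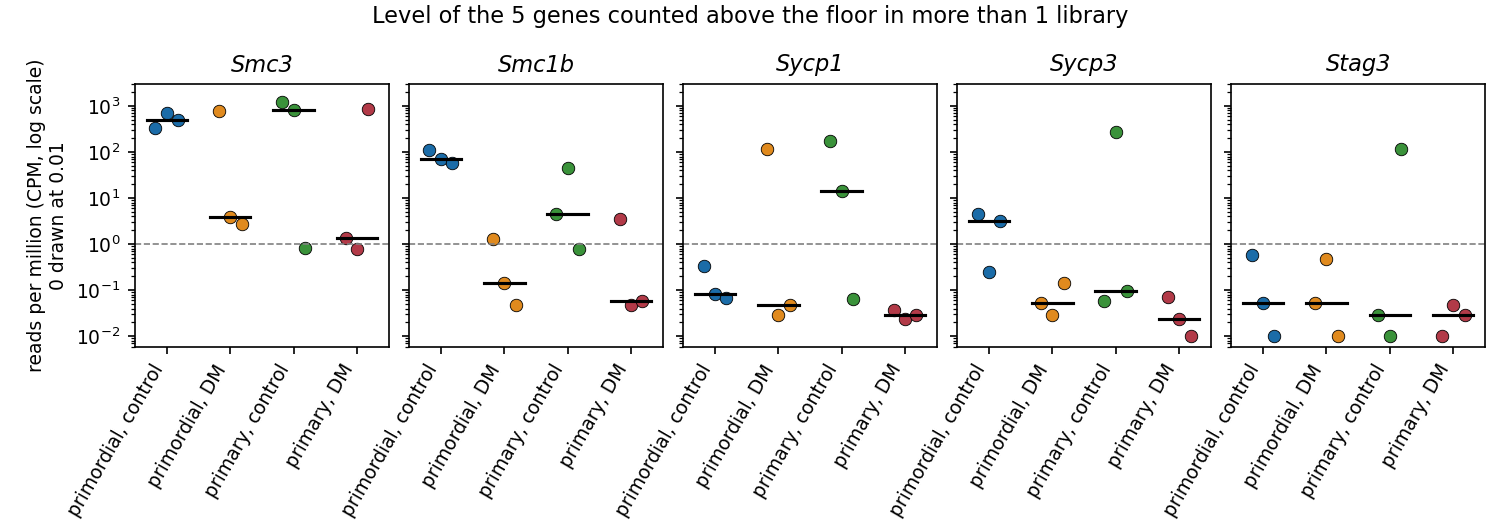
Level of the 5 members counted above 3 reads in more than 1 library, in CPM on a logarithmic axis (0 drawn at 0.01), with 1 point per library in order of replicate, the median of the 3 as a black bar and 1 CPM as a dashed line. The *Smc1b* points of primordial controls (58.6 to 113 CPM) lie above all other *Smc1b* points, while *Sycp3* and *Stag3* have 1 point each above 10 CPM and *Sycp1* has 3.

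*Smc3*, the SMC subunit shared by mitotic and meiotic cohesin (ENSMUSG00000024974.10, chr19:53600398-53645833, plus strand), was at 325 CPM or more in 7 libraries and at 3.96 CPM or less in the other 5. In primordial controls it was at 325, 701 and 502 CPM, and in primordial DM at 790, 3.96 and 2.80 CPM. In primary controls it was at 1206, 805 and 0.836 CPM, and in primary DM at 1.35, 0.797 and 875 CPM. The low values came from 4 of the 6 DM libraries and 1 of the 6 control libraries. At each stage 1 DM library was as high as the controls, apart from primary control replicate 3, which was low. No comparison of *Smc3* passed the threshold: with DM its edgeR log2 change was -0.79 (SE 1.98, adjusted p = 0.954) in primordial and 0.76 (SE 3.06, adjusted p = 0.898) in primary follicles. Between stages it was 0.30 (SE 2.20, adjusted p = 0.989) in controls and 1.78 (SE 2.95, adjusted p = 0.763) in DM libraries by the same test. Without DM replicate 1 the value in primordial follicles was -6.75, and without DM replicate 3 the value in primary follicles turned to -7.27.

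*Sycp1*, the transverse filament gene (ENSMUSG00000027855.13, chr3:102818499-102936100, minus strand), had reads in all 12 libraries but over 13 reads in 3 of them. The counts were 13, 3 and 1 in primordial controls, 4387, 1 and 1 in primordial DM, 6010, 197 and 2 in primary controls, and 1, 1 and 1 in primary DM libraries. A single library held nearly all reads in primordial DM, and 96.8% of the reads in primary controls came from replicate 1. In controls, *Sycp1* was higher in primary than in primordial follicles by 8.89 (SE 4.13) on the log2 scale, with an adjusted p of 0.749 by edgeR, and by 5.32 without primary control replicate 1. Its unadjusted p was under 0.05, as for 6.44% of genes in that comparison, and 0% had an adjusted one, and DESeq2 gave 9.10 (SE 1.88) with an adjusted p of 0.000291, beside 4.28% of genes called. The groups overlapped, since primary control replicate 3 was as low as the primordial controls. In primary follicles the reads pooled over the 3 libraries of a group, divided by their pooled totals, gave a level 2749-fold lower with DM (exact 95% counting interval 940 to 13333, from 3 reads in the DM group), and 155-fold lower without control replicate 1. The gene was under the filter there, and without the filter its adjusted p was 0.347 by edgeR and 0.0333 by DESeq2. With the filter, DESeq2 called 16.7% of the genes tested in that comparison. In primordial follicles the DM value rested on 1 library, with 8.34 (SE 4.47, adjusted p = 0.475 by edgeR without the filter) and -1.24 without DM replicate 1.

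The change of *Sycp1* with DM differed between the stages by -17.40 (SE 5.64) on the log2 scale, with an adjusted p of 0.111 by edgeR, and by -14.79 (SE 3.12) with an adjusted p of 0.000122 by DESeq2. In the 2 groups where *Sycp1* was high, nearly all reads came from 1 library each. These were primordial DM replicate 1 (4387 of 4389 reads) and primary control replicate 1 (6010 of 6209 reads). *Sycp1* was among the 18.9% of the 8500 genes that had an unadjusted p under 0.05 in this test, where 0% had an adjusted one and DESeq2 called 7.96%.

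*Sycp3*, the lateral element gene (ENSMUSG00000020059.9, chr10:88459569-88473236, plus strand), had 94.1% of its 4087 reads in 1 library, control replicate 2 of the primary follicles. Its counts were 170, 9 and 49 in primordial controls, 2, 1 and 3 in primordial DM, 2, 3845 and 3 in primary controls, and 2, 1 and 0 in primary DM libraries. All 3 primordial DM libraries were below all 3 primordial controls in CPM, as for 11% of the genes tested in that comparison. The gene was under the filter on low counts there, and without the filter its change was -4.28 (SE 3.60) with an adjusted p of 0.579 by edgeR. Between stages in controls it was 4.99 (SE 3.46, adjusted p = 0.810 by edgeR), and -2.21 without the library that held most reads. In primary follicles the pooled level was 1704-fold lower with DM (counting interval 583 to 8269) and 2.69-fold lower without that library. The exons of *Sycp3* overlap those of *Chpt1* on the opposite strand, and the strand setting of the counting is not given in the sources used here. *Chpt1* had 370 reads in primordial control replicate 1 and 0 in the library with 3845 *Sycp3* reads.

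The germline STAG subunit gene *Stag3* (ENSMUSG00000036928.14, chr5:138280240-138312393, plus strand) had 98.7% of its 3583 reads in control replicate 3 of the primary follicles. The counts were 22, 2 and 0 in primordial controls, 2, 17 and 0 in primordial DM, 1, 0 and 3536 in primary controls, and 0, 2 and 1 in primary DM libraries. The library with 3536 reads was the one with the fewest genes at 1 CPM and with the lowest sum of oocyte markers. Without the filter, its change between stages in controls was 10.80 (SE 3.82, adjusted p = 0.509 by edgeR) and -2.92 without that library. In primary follicles the pooled level in controls was 1566 times that with DM (counting interval 535 to 7597), and 0.729 times without that library. Its change with DM differed between stages by -11.42 (SE 4.87), with an adjusted p of 0.192 by edgeR, and DESeq2 gave no p-value for it.

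**Figure D4:**
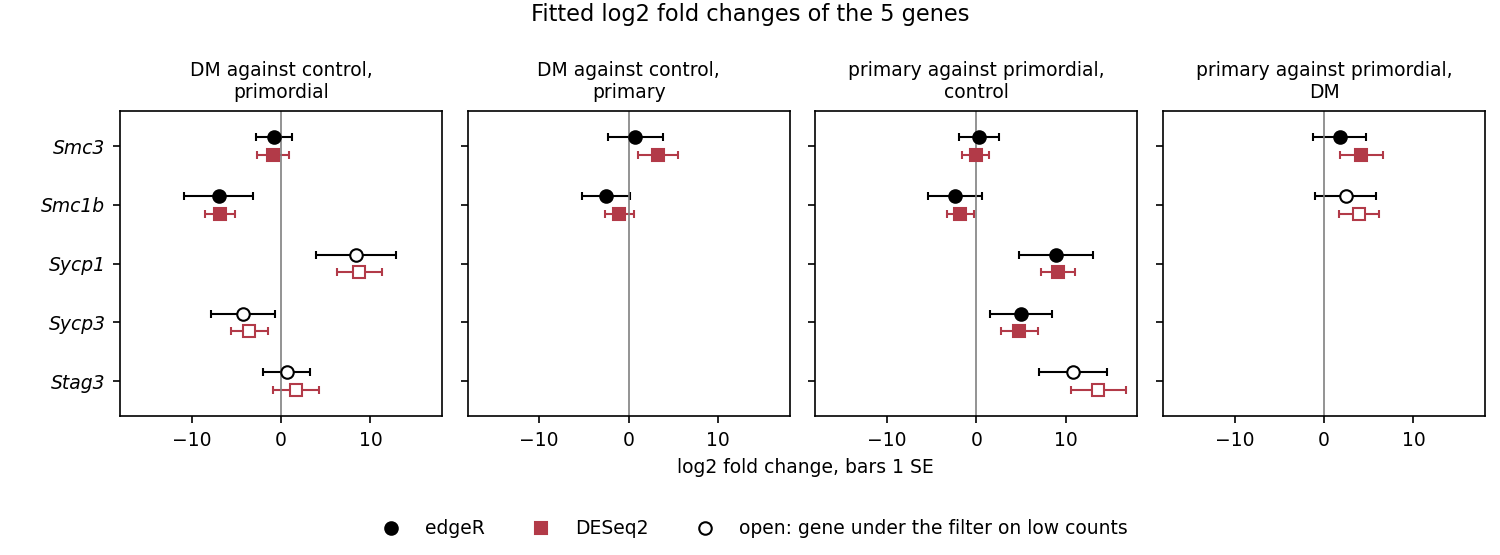
Fitted log2 fold changes (horizontal axis, bars 1 SE) of 5 members in 4 comparisons by edgeR (black circles) and DESeq2 (red squares), open where a gene was under the filter on low counts; ratios against a group of 3 reads or fewer are not drawn. The *Smc1b* value in primordial follicles lies at -6.94 and -6.78 with bars of 3.86 and 1.70.

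The remaining genes had too few reads for a comparison. *Rec8*, the meiotic kleisin (ENSMUSG00000002324.8, chr14:55618037-55625395, plus strand), had 18 reads, all in primary control replicate 1. Its mean CPM was set against a floor of 3 reads in each library of the group at 0, and by this it was at least 1.99-fold lower with DM in primary follicles, and at least 1.47-fold higher in primary than in primordial controls. *Hormad1*, which marks unsynapsed axes (ENSMUSG00000028109.14, chr3:95559677-95587671, plus strand), had 27 reads, all in primordial control replicate 3. Against the same floor it was at least 5.82-fold lower with DM in primordial follicles and at least 4.48-fold lower in primary than in primordial controls. Each of these bounds rests on 1 library and is gone without it. The axis gene *Sycp2* (ENSMUSG00000060445.11, chr2:178345293-178407685, minus strand) had 3 reads in all. The central element gene *Syce1* (ENSMUSG00000025480.5, chr7:140777229-140787852, minus strand) had 4, all in primordial controls. *Dmc1*, the meiotic recombinase (ENSMUSG00000022429.11, chr15:79561497-79605109, minus strand), had 2, with 1 in a control library of each stage. At this depth no difference was detectable for these 3 genes.

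The somatic counterparts of the meiotic cohesin subunits were present in the same libraries, mostly at higher levels per kb. *Smc1a* exceeded *Smc1b* in 12 of 12 libraries, with a median of 81.2 RPKM and a range of 0.228 to 625 RPKM. *Rad21* exceeded *Rec8* in 12 of 12 libraries, at 0.0166 to 174 RPKM. *Stag3* exceeded *Stag1* in 2 of 12 libraries, primary control replicate 3 and primordial DM replicate 2, and *Stag2* in the former alone. *Smc1a* did not show the split of *Smc1b* between primordial controls, at 210, 157 and 39.6 RPKM, and primordial DM, at 101, 17.0 and 114 RPKM. Its change with DM there was -0.17 (SE 1.67, adjusted p = 0.988 by edgeR), and the difference between both genes was not tested. *Rad21* was at 1.36, 35.8 and 174 RPKM in primary controls and at 0.120, 0.0166 and 0.0402 RPKM in primary DM libraries, a change of -11.06 (SE 4.68) with an adjusted p of 0.395 by edgeR and no overlap, as for 11.8% of genes tested there. *Stag2* was lower in primary than in primordial DM libraries without overlap, with a log2 change of -8.62 (SE 3.94, adjusted p = 0.286 by edgeR), where 17% of genes were, 17.2% had an unadjusted and 0% an adjusted p under 0.05 and DESeq2 called 21.6%.

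**Figure D5:**
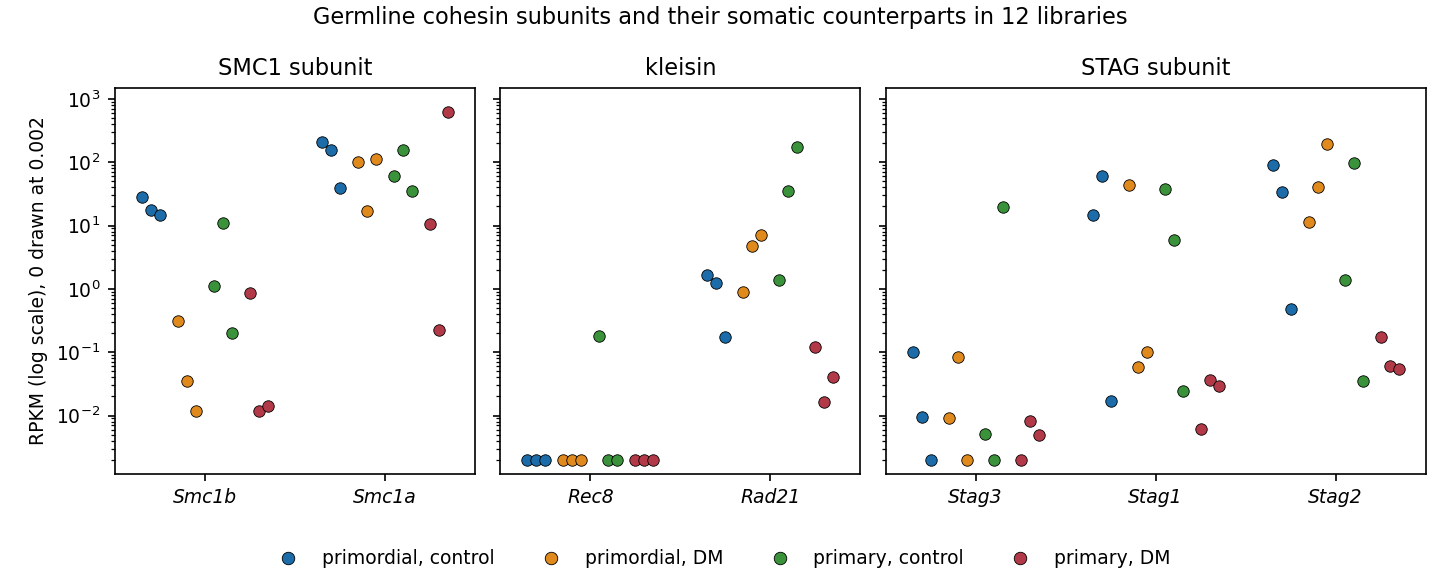
RPKM on a logarithmic axis (0 drawn at 0.002) of the germline cohesin subunits and their somatic counterparts, 1 point per library, coloured by group. *Smc1a* lies above *Smc1b* and *Rad21* above *Rec8* in all 12 libraries, and 1 primary control library stands apart for *Stag3* at 19.8 RPKM.

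Many other genes of meiotic prophase were also sparse. Of 10 further axis and synaptonemal complex genes, 5 were at 0 in all 12 libraries and at most 1 was tested in a comparison. Of 6 genes that attach telomeres to the nuclear envelope, 3 were at 0 throughout. Of 4 genes of entry into meiosis, 2 were at 0 in all libraries, and the other two, *Dazl* and *Mael*, passed no test. Of 27 further recombination genes, 4 were at 0 in all libraries and 5 were tested with DM in primordial follicles. All 5 had a lower value, with a median of -6.38, against 0.13 over all genes, of which 52.0% had a higher value. With DM in primary follicles 2 were tested and 2 had a higher value, with a median of 2.62, against 0.31 over all genes. A gene that passes the filter through the reads of 1 group has a difference by construction. None passed the adjusted threshold. *Mlh3*, a mismatch repair gene that acts in crossover formation, was at 12, 18 and 273 reads in primordial controls and at 4, 1 and 0 in primordial DM, without overlap (edgeR log2 change -6.75, SE 3.14, adjusted p = 0.658). It was named for its small unadjusted p, and 11% of the genes tested there were lower with no overlap.

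Of 16 mitotic cohesin genes and regulators, 11 were tested with DM in primordial follicles, 7 with a higher and 4 with a lower value (median 0.44), and 10 in primary follicles, 4 higher and 6 lower (median -3.36, against 0.31 over all genes). None passed the adjusted threshold in any comparison. *Mau2*, a gene of the cohesin loader, was at 232, 71.0 and 932 CPM in primary controls and at 0.654, 0.141 and 0.342 CPM in primary DM libraries, with no overlap (edgeR log2 change -10.74, SE 4.56, adjusted p = 0.395). It was named for its small unadjusted p, and 11.8% of the genes tested there were lower with no overlap. *Espl1*, the gene of separase, which cuts cohesin, was at 94, 4 and 4275 reads in primordial controls and 2, 0 and 13 in primordial DM (-8.16, SE 4.10, adjusted p = 0.658 by edgeR). These groups overlapped, and 7.33% of genes had an unadjusted p under 0.05 there. Between stages in controls, *Espl1* had a value of -7.75 (SE 3.85) and *Rad21* of 8.28 (SE 3.00), with adjusted p of 0.749 and 0.672 by edgeR. The stages overlapped for each gene, and 6.44% of genes had an unadjusted p under 0.05. The change with DM differed between stages with an unadjusted p under 0.05 for *Rad21* (-13.63), *Mau2* (-9.86), *Esco2* (-10.23) and *Espl1* (12.33). The same held for 18.9% of the 8500 genes in this test by edgeR, and 0% had an adjusted p under 0.05. The adjusted p of these genes by edgeR ran from 0.126 to 0.214.

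Across the 12 libraries, the Spearman correlation of *Smc1b* and *Smc3* was 0.392, and no other pair of members had over 3 reads in enough libraries. Another 3692 genes were compared with the mean log2(CPM + 1) of the 10 members. Those most like this mean over the 12 libraries were *Dazap1* (rho 0.930), *Dst* (0.916) and *Nae1* (0.902), which share library, depth and group with the members. *Smc3* held 85.5% of the reads of the members, and its weight in this mean was not tested.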

How the data were processed

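The deposited table holds counts of reads per gene, which the authors made by trimming with Trim Galore, alignment to mm10 and counting with featureCounts, without normalization. The study's methods name TopHat2 as aligner and the submitters' processing notes STAR. RNA was amplified before sequencing, and library kits are described both as TruSeq RNA Access, which captures coding exons with probes, and as Smart-seq II. Gene coordinates and exon lengths were taken from GENCODE annotation of GRCm38, and promoters from RefSeq. Of 55401 genes, 55141 were matched to a symbol.

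CPM used library totals, RPKM the merged exon length. Each comparison was fitted to its 2 groups with edgeR 4.0.16 (quasi-likelihood test, filterByExpr, TMM, prior count 0.125, Benjamini-Hochberg adjustment over all genes tested, threshold 0.05) in R 4.3.3, and the difference of differences to all 12 libraries. Values called without the filter come from a fit of all genes with a read. DESeq2 1.42.0, other scalings, the filter, a replicate block and left-out libraries were the alternatives. Scripts were tested on simulated data. A fold against a group with 0 reads used mean CPM and a floor of 3 reads per library, a fold against a group of 1 to 3 reads used reads pooled over each group, and counting intervals are exact 95% intervals, which cover counting error only. Correlations used log2(CPM + 1). No 2 replicates agreed within sampling noise (chi-square per degree of freedom 1146 or more). The study describes the libraries as biologically independent pools. The members and all gene lists were chosen with earlier results of these data known. Named are all members, their somatic counterparts, up to 2 genes per direction and comparison of the other meiotic and cohesin lists with the smallest unadjusted p under 0.05, and the 3 genes most like the mean of the members. *Meiosin* was not matched and not used, and some genes that this rule names are not reported here.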

Additional observations from a re-analysis of the deposited data

How the results depend on the processing

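No member passed the adjusted threshold in edgeR under any scaling, filter, block or left-out library. Among members that passed the filter, DESeq2 called 1 with DM in primordial follicles (*Smc1b*, beside 9.7% of all genes) and 1 between stages in controls (*Sycp1*, beside 4.28%). It called 2 in the difference of differences (*Sycp1* and *Smc1b*, beside 7.96%). Without the filter it also called *Sycp1* with DM in primary follicles, where 16.7% of genes were called with the filter. An unadjusted p under 0.05 in edgeR called 1 between stages in controls, beside 6.44% of genes, and 2 in the difference of differences, beside 18.9%. Outside the left-out libraries, 9 member values changed sign, and 2, those of *Smc1b* and *Sycp1* with DESeq2, came to pass the threshold. The other 68 kept their sign and were not seen to pass it. They include values for which DESeq2 gave no adjusted p, as for *Sycp1* with DM in primordial follicles. With library totals alone, *Stag3* with DM in primordial follicles went to -0.24 and *Smc3* with DM in primary follicles to -1.31. *Smc3* between stages in controls was -0.0702 with DESeq2 and -0.0704 with its size factors in edgeR. Same-numbered libraries deviated with correlations of -0.0465 to 0.0492, so no pairing by replicate number was visible. With the spread of these libraries a weak pairing could be missed. The replicate block called 0 members and turned *Smc3* with DM in primary follicles to -6.35, *Smc3* between stages to -0.85 in controls and -0.0850 in DM libraries, *Sycp3* between stages in controls to -2.15 and *Stag3* there to -1.06. Left-out libraries reversed 9 values, kept 75 and gave ranges, with DM in primordial follicles, of -1.24 to 8.99 for *Sycp1* and -2.09 to 2.57 for *Stag3*, with DM in primary follicles of -7.27 to 1.77 for *Smc3*, between stages in controls of -2.21 to 5.63 for *Sycp3*, -2.92 to 12.53 for *Stag3* and -0.75 to 0.89 for *Smc3*, and between stages in DM libraries of -1.13 to 4.26 for *Smc1b* and -6.46 to 7.82 for *Smc3*. The cause of these reversals was not tested. Scaling moved the median of all genes from the TMM values of 0.13 (DM, primordial), 0.31 (DM, primary), -0.31 (stages, controls) and 0.35 (stages, DM) to 0.56, 2.04, -0.03 and 2.04 with size factors and to -0.43, -0.96, -0.50 and -0.96 with library totals. At 10 CPM, members were detected in 2 combinations in primordial DM, 1 in primary DM and 16 in all groups. At 1 CPM, left-out libraries gave 5 to 7 in primordial controls, 2 to 4 in primordial DM, 4 to 7 in primary controls, 1 to 3 in primary DM and 21 to 25 in all groups. The biological coefficient of variation was 1.76 to 1.90, which limits what 3 libraries a group can show.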

Other observations

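*Ccnb1ip1*, a gene of the recombination list that codes for the crossover regulator HEI10, had a narrower range of counts than any member with over 30 reads, and was chosen after its values were seen. It had reads in all 12 libraries, at 206, 298 and 386 in primordial controls, 123, 325 and 87 in primordial DM, 128, 78 and 45 in primary controls, and 167, 95 and 145 in primary DM libraries. Per kb this was 0.768 to 13.6 RPKM.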
